A study of Mus musculus with 4 samples.

Results

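Open chromatin at 6 genes of the Notch pathway was compared between T helper populations of mice with allergic lung disease. The genes are Notch1 and Notch2, which encode receptors, Furin, which encodes a protease that processes them, Rbpj, which encodes the DNA-binding protein of the pathway, and Hes1 and Dtx1, which are target genes. Their regions were chosen by position: a region belonged to a gene when its midpoint lay inside it, or lay outside all protein-coding genes and nearest to an end of it within 100 kb. By this rule 57 of 59843 distinct regions belonged to the 6 genes, and after merging overlapping regions they made up 52 of 52537. Rbpj held 21 of the 52, Notch2 9, Furin and Hes1 7 each, and Notch1 and Dtx1 4 each.

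The cells were taken at day 15 from mice with an airway allergy to house dust mite (HDM), a model of asthma in which the animals are first sensitized and then challenged. Th2 cells (CD3+CD4+CD44+ST2+CD30L+), Treg cells (regulatory T cells, CD3+CD4+CD25hiCD30L-) and other effector cells (memory cells that are not Th2, CD3+CD4+CD44+ST2-CD30L+) were sorted from lung with airways, and naive cells (CD3+CD4+CD44loCD62Lhi) from the lymph node that drains the lung. Every difference from naive cells is therefore also a difference between tissues, and the day itself is uncertain for other effector and naive cells, whose titles say 15 and whose descriptions say D10. Per the labels' protocols each population had 3 biological replicates of 1000 cells, and the labels name neither strain nor age. Accessibility was measured by ATAC-seq, in which a transposase cuts open DNA, and the deposited tables hold, for each of 6 pairs of populations, the regions that the authors called different with 1 log2 fold each. The tables hold neither replicates nor counts nor p-values. Depth is therefore unknown, no fold has an error, and no test between populations was possible. In sorted bulk cells a larger share of cells with an open region and a wider opening per cell cannot be told apart. A region absent from a table was not called, which does not show that the populations were alike there.

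Notch receptors are cut by furin on their way to the cell surface. When a ligand of the Delta or Jagged family on a neighbouring cell binds, an ADAM protease and then gamma-secretase release the intracellular part of the receptor, which enters the nucleus and joins RBPJ and a Mastermind protein to switch genes on. Without it RBPJ binds corepressors at the same sites. In mouse T helper cells Notch signalling is known to act on Gata3 and Il4, the genes at the centre of the Th2 program.

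The start sites of 5 of the 6 genes lay under listed regions, and every one of those regions came from a table of other effector cells. These 3 tables list no region as higher in other effector cells, and whether they were filtered by direction before deposit is unknown, so counts from them may show 1 side only. RefSeq windows from 250 bases before to 50 after a start (build GRCm38.p6) were available for Rbpj, Notch1, Notch2, Furin and Dtx1. All 5 genes had a window under a region that was lower in other effector cells than in at least 1 other population, whereas none had one in the tables that compare Th2, Treg and naive cells with each other. Among protein-coding genes with a window, 49.0% had a region over it in a table of other effector cells and 4.77% in any other table. The 5 windows are shown because the listed regions cover them. Capitals mark the base of the start site and, in Rbpj, matches to TGGGAA, the core of the motif RBPJ binds, searched on both strands.

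Rbpj, chr5:53590096-53590395, plus strand: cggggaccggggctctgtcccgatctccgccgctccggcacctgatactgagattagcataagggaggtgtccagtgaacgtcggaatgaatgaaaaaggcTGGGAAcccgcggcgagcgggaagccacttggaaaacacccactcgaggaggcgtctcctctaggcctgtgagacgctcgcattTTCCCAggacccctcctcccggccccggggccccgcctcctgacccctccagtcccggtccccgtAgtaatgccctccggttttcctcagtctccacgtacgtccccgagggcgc
Notch1, chr2:26503773-26504072, minus strand: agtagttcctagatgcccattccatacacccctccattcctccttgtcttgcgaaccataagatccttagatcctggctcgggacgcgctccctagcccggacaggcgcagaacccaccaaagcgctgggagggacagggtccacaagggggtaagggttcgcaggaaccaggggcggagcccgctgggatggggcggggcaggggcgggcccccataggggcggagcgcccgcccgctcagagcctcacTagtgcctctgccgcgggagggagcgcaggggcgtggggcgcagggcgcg
Notch2, chr3:98013288-98013587, plus strand: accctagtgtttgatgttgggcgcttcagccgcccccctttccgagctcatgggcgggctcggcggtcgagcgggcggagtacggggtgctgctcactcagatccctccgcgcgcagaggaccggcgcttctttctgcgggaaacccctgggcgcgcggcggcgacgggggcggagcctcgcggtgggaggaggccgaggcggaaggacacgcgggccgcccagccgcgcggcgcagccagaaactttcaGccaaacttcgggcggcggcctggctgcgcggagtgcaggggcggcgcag
Furin, chr7:80405387-80405686, minus strand: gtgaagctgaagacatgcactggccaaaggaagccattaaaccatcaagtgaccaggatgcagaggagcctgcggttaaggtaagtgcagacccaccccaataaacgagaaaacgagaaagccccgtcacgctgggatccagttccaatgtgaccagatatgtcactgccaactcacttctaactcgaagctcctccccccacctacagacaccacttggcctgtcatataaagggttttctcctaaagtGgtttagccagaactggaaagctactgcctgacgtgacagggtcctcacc
Dtx1, chr5:120711620-120711919, minus strand: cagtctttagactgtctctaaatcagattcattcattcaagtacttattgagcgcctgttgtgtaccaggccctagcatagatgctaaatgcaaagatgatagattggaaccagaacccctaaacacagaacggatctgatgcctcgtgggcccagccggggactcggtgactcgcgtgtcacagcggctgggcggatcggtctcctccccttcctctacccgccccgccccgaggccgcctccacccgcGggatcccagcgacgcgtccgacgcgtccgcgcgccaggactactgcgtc

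The Rbpj window held TGGGAA at 149 bases before the start and, on the opposite strand, where it reads TTCCCA, at 65 bases before it. The other 4 windows had no match. Of all 32851 RefSeq windows, 25.6% had at least 1, so such a match is common. The longer form GTGGGAA, the AP-1 motif TGANTCA and the E box CACGTG, present in 6.38%, 7.81% and 7.15% of all windows, had no match in any member window, including the second windows of Rbpj and Furin. The GATA motif GATAA, present in 25.4%, had 1 match, in the second Rbpj window. The windows of Rbpj, Notch1, Notch2 and Dtx1 held 26, 23, 41 and 26 CG dinucleotides, against a median of 7 over all windows. The Furin window shown held 7, and that of its second start site, at 80402812, held 51.

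Folds are given as sizes, on the log2 scale, with the higher population named. The deposited columns run as naive minus each of the rest, other effector minus Th2 or Treg, and Treg minus Th2. The sign was checked on Ccr7, Tcf7 and Lef1, markers of naive cells, whose 69 merged regions included 0 higher in Th2 and 32 higher in naive cells, 0 higher in Treg and 24 higher in naive cells, and 0 higher in other effector and 58 higher in naive cells. Having served this check, they are no evidence of direction. Il4, Il5, Il13, Il1rl1 and Pparg had 27 of 42 regions higher in Th2 cells than in naive cells and 0 the other way. Of all merged regions 9.67% were listed in the first direction. Of the same 42, 15 were higher in Treg cells than in naive cells. Only 2 were higher in Th2 than in Treg cells and 0 the other way, beside 6.72% and 3.34% of all. All of the 15 came from Il1rl1 (9) and Pparg (6). Il4, Il5 and Il13 had 0 higher in Treg and 1, 2 and 5 higher in Th2 than in naive cells. Between Th2 and Treg cells few regions of these genes were thus listed, which does not show that the populations were alike there. Foxp3, Il2ra, Ctla4 and Ikzf2 had 17 of 69 higher in Treg cells than in Th2 cells and 0 the other way. Il1rl1 and Il2ra encode the sort markers ST2 and CD25. No table lists any region as higher in other effector cells, so the label of these cells could not be checked on Th1 and Th17 markers (Ifng, Tbx21, Cxcr3 and Il17a). Regions of B cell genes (Cd79a, Ebf1 and Pax5) were higher in naive cells than in other effector cells at 16 of 18, of myeloid genes (Lyz2, Csf1r, Itgam and Spi1) at 11 of 20, and of CD8 and NK cell genes (Cd8a, Cd8b1, Prf1 and Klrb1c) at 11 of 17. Of all merged regions 33.7% were listed in that direction. Higher in Th2 than in naive cells were 0 of the B cell, 2 of the myeloid and 1 of the CD8 and NK cell regions. Higher in naive than in Th2 cells were 5, 1 and 6 of them. Beside these stand 9.67% of all merged regions for Th2 over naive and 9.21% for naive over Th2 cells. Whether other cells took part in the differences from naive cells was not tested.

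The 6 genes leaned to Th2 cells. Of their 52 merged regions, 16 were listed as higher in Th2 cells than in naive cells and 1 as higher in naive cells, whereas 9.67% and 9.21% of all merged regions were listed in these directions. Rbpj gave 11 of the 16, Furin 3, and Notch2 and Hes1 1 each, so this lean rests mainly on Rbpj. Against naive cells Treg cells were higher at 6 regions and naive cells at 1, beside 6.64% and 5.76% of all merged regions. Between Treg and Th2 cells, no member region was higher in Treg cells and 5 were higher in Th2 cells, 3 at Notch2 and 2 at Rbpj, beside 3.34% and 6.72% of all. No region of any gene was listed as higher in other effector cells. Their 3 tables held 38 member regions higher in Th2, 15 higher in Treg and 10 higher in naive cells, beside 53.2%, 46.7% and 33.7% of all merged regions. The median size of a member fold, both directions pooled, was 6.30 (17 folds) against 5.45 over all regions between Th2 and naive cells. In the authors' deposited tables it was 4.89 (7) against 5.54 between Treg and naive cells, and 5.12 (5) against 5.52 between Treg and Th2 cells. Between other effector cells and Th2, Treg and naive cells it was 5.675 (38), 6.0 (15) and 5.005 (10). Over all regions these were 5.4, 5.38 and 5.41 in the authors' deposited tables. As shares of the 52 the 3 counts over other effector cells are 73.1%, 28.8% and 19.2%, so the members lie above the background for Th2 cells and below it for Treg and naive cells. The members were known to be of interest from earlier results of these data, and their regions are not independent of each other, so these shares describe the 6 genes and test nothing.

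**Figure D1:**
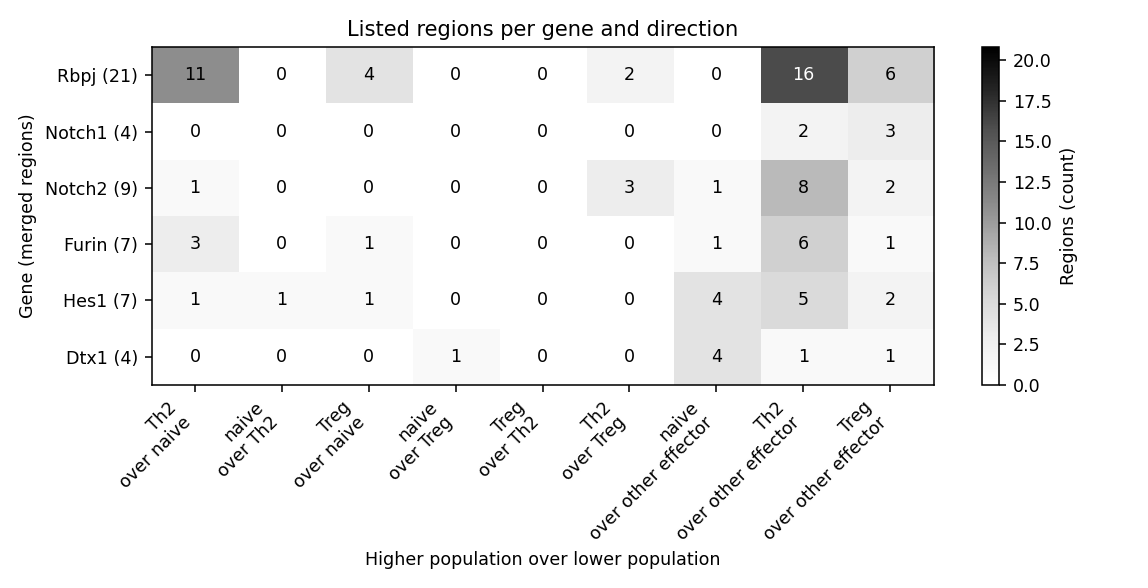
Number of merged regions of each gene (rows, with its total in brackets) listed as higher in the first than in the second population (columns), with darker cells for higher counts. Rbpj holds 11 of the 16 regions higher in Th2 cells than in naive cells, and Dtx1 has all 4 of its regions in the column of naive over other effector cells.

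Rbpj had the largest set of regions of the 6 genes. It lies on chromosome 5 at 53555779 to 53657445, and the start sites of the RefSeq windows lie 34.6 kb and more inside that span. Of its 21 merged regions 7 lay inside the gene and 14 upstream of it, over 76.2 kb from 53470906 to 53547146. The next protein-coding gene on that side, Smim20, ends 277 kb from Rbpj, and on the other side Cckar starts 41.0 kb away. Of the regions 15 were listed as higher in Th2 cells only, 2 in both Th2 and Treg cells and 4 in Treg cells only. None was higher in naive cells in any table. Only 2 of the regions were listed between Treg and Th2 cells, both higher in Th2 cells. The rest were not called different between these populations. Among the 203 genes with at least 20 merged regions, a threshold chosen after these counts were seen, 6 (2.96%) had no region higher in naive cells, and among the 1508 genes with at least 8 it was 129 (8.55%). By the number of regions at which Th2 cells exceeded naive cells, Rbpj with 11 of 21 stood level with Il1rl1 (11 of 18), Itpr1 (11 of 37) and Myo1e (11 of 28), and only Atxn1 had more (12 of 45). These genes are named after their values were seen. Most of the Rbpj count depends on assignment across the intergenic stretch: with regions assigned only within 10 kb, 3 of the 11 were kept, none of the 2 between Th2 and Treg cells, and 5 of the 16 between Th2 and other effector cells.

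The strongest Rbpj region lay 80.7 kb before the start site, at chr5:53509304-53509975. In the authors' deposited tables Th2 cells exceeded naive cells there by 8.33, other effector cells by 8.16 and Treg cells by 8.16. Th2 cells thus stood above each of the other populations at this position. A second region of this kind lay 109 kb before the start, at chr5:53480965-53481386, where Th2 cells exceeded naive, other effector and Treg cells by 5.04, 4.87 and 4.87 in the authors' deposited tables. These were the only Rbpj regions listed between Treg and Th2 cells. At chr5:53490471-53491374, 99.4 kb before the start, both Th2 and Treg cells were high: in the authors' deposited tables the fold over naive cells was 7.27 for Th2 and 6.35 for Treg cells, and over other effector cells 7.10 and 6.18. The outermost of the regions shared by both, at chr5:53471164-53471469, was weaker. Th2 and Treg cells exceeded naive cells there by 4.18 and 4.86, and other effector cells by 5.24 and 5.59, in the authors' deposited tables. It is the only region of the 6 genes where a fold over naive cells was smaller than the matching fold over other effector cells. A region beside it, chr5:53470906-53471122, had 4.43 for Treg over other effector cells in the authors' deposited table.

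A further run of upstream regions had Th2 cells as the high population. Those at 86.7, 57.8, 50.2, 46.7 and 43.5 kb before the start had folds over naive cells of 5.84, 6.23, 6.98, 4.83 and 6.82 in the authors' deposited table. The last of them overlapped Gm40304, a lncRNA gene. Each was listed over other effector cells as well, and none between Treg and Th2 cells. The remaining 4 upstream regions were weaker and separated Th2 from other effector cells only, at 4.06 to 4.46 in the authors' deposited table.

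Inside Rbpj some regions were listed with Th2 cells high and others with Treg cells high. None of the regions inside the gene was listed between Treg and Th2 cells. The region over the start site, chr5:53590039-53590945, was higher in Th2 cells than in other effector cells by 6.8 in the authors' deposited table. Its upstream neighbour, chr5:53588879-53589893, was higher in Treg cells than in other effector cells by 7.82 in the authors' deposited table. Both lie within about 1 kb of the start, each was listed for 1 population, and neither is listed between Treg and Th2 cells. Of the other 5, regions 4.09 and 8.95 kb after the start and 46.8 kb after it had Th2 cells high, with largest folds of 5.58, 4.82 and 4.29 in the authors' deposited tables. Those 17.6 kb before and 48.5 kb after the start had Treg cells high, with folds over naive cells of 4.88 and 4.84 in the authors' deposited table.

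**Figure D2:**
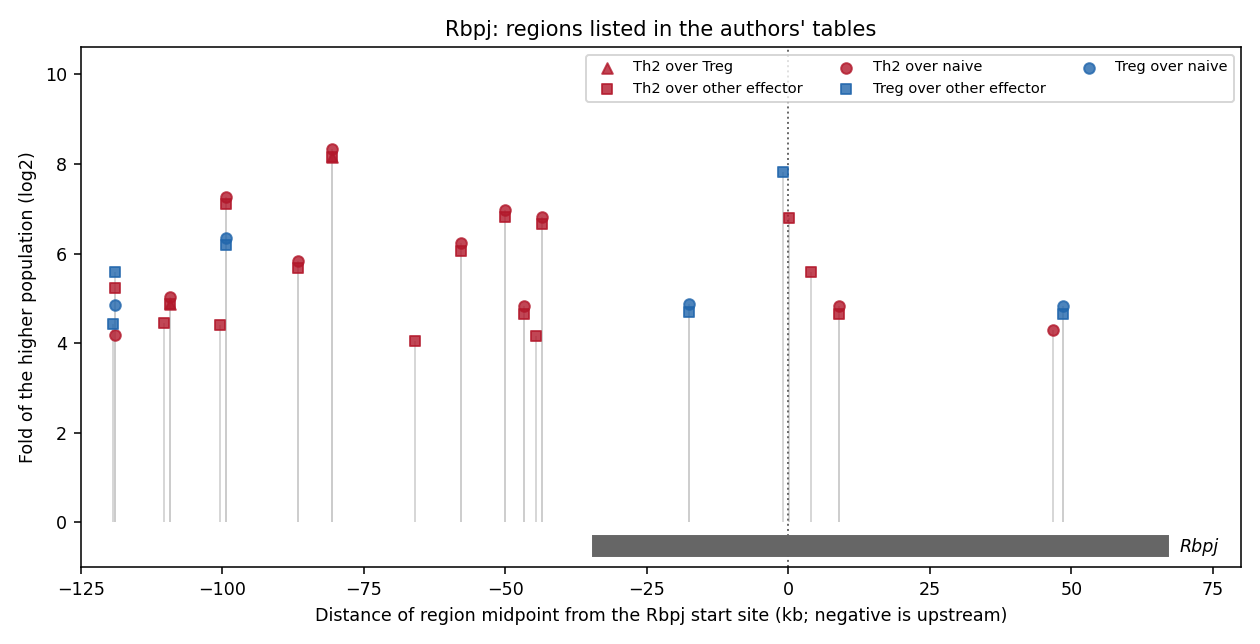
Size of each listed fold (log2) against the distance of the region midpoint from the Rbpj start site in kb, with the gene as a grey bar. Colour gives the higher and marker shape the lower population; red Th2 points fill the stretch upstream of the gene, with the largest fold of 8.33 at 80.7 kb before the start.

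Where Th2 or Treg cells were the high population, folds of a region against different low populations were mostly not separate measurements. Over all regions listed as higher in Th2 cells than in both naive and other effector cells, 3189 of 3896 had folds that differed by 0.17, within 0.01. For Treg cells above the same pair this was so at 2411 of 2761, and for Th2 cells above other effector and Treg cells 2659 of 3541 had a difference of 0.00. Among the 6 genes 28 such pairs of folds could be formed, and 23 had the difference most frequent for their tables, none of them among the 2 pairs with naive cells high. Of the other sets of 1 high and 2 low populations, Treg cells above other effector and Th2 cells reached 75.4%, and the rest lay lower, between 59.4% and 66.2%, with 41.3% for naive cells above Th2 and Treg cells. At the regions with a constant difference the low populations stand at a fixed distance from each other whatever the region, so the second fold adds no value of its own and no order among the low populations can be read. Whether they had any reads there was not tested. The 5 exceptions were both pairs of the outermost shared Rbpj region, and 1 region each of Notch2, Hes1 and Dtx1.

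**Figure D3:**
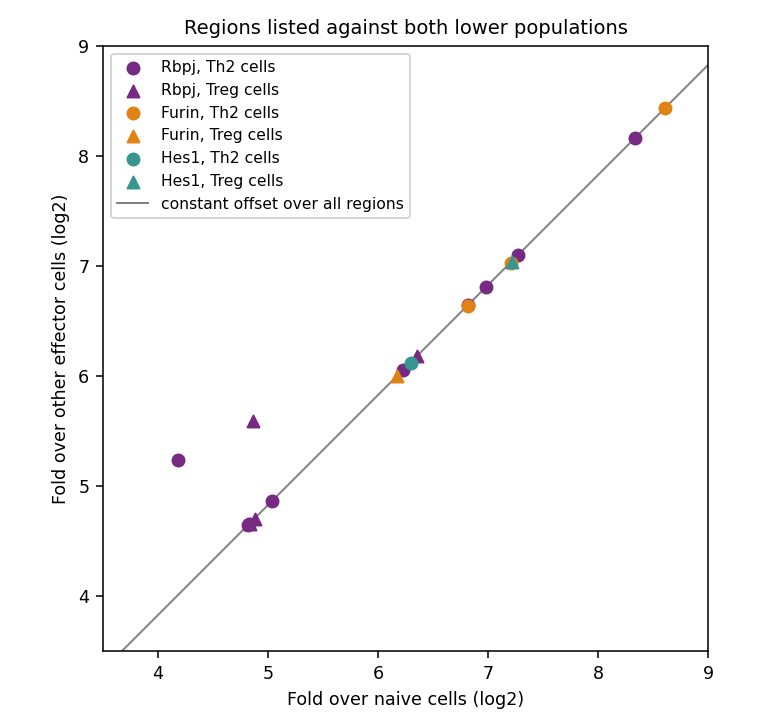
Fold over other effector cells against fold over naive cells (both log2) at regions of Rbpj, Furin and Hes1 listed in both tables, for Th2 cells (circles) and Treg cells (triangles). The points lie on the grey line of constant difference except those of the outermost shared Rbpj region, with 5.24 against 4.18 for Th2 cells and 5.59 against 4.86 for Treg cells.

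The receptor genes differed in which of their regions were listed. Notch1, on chromosome 2 at 26457902 to 26503822 and best known in T cells for commitment to the lineage in the thymus, had 4 regions, all inside the gene and all lower in other effector cells. Over its start site, at chr2:26502941-26504218, Treg cells exceeded other effector cells by 8.07 in the authors' deposited table, the largest fold of Treg cells among the 6 genes. That region also overlapped Gm35978, a lncRNA gene. At 20.2 kb after the start Th2 and Treg cells exceeded other effector cells by 7.22 and 6.57 in the authors' deposited tables. The remaining 2 were listed once each, with 5.83 for Treg cells at 10.3 kb and 4.63 for Th2 cells at 5.50 kb after the start in the authors' deposited tables. No Notch1 region was listed in any comparison among Th2, Treg and naive cells.

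Notch2, on chromosome 3 at 98013538 to 98150367, had 9 regions and was the member with most regions higher in Th2 cells than in Treg cells. At 33.0 kb after the start, Th2 cells exceeded Treg cells by 6.52, other effector cells by 6.52 and, over a slightly wider region, naive cells by 6.67 in the authors' deposited tables. At 43.7 kb after the start Th2 cells exceeded Treg cells by 5.12 and other effector cells by 6.24 in the authors' deposited tables, so the folds over these low populations differed there. The third such region lay 7.91 kb before the start, with 5.10 over each of Treg and other effector cells in the authors' deposited tables. Over the start site, at chr3:98013047-98014138, Th2 cells exceeded other effector cells by 5.68 and Treg cells did so by 7.26 in the authors' deposited tables. A region 20.9 kb before the start also had both high, with 5.70 and 4.82 in the authors' deposited tables. The other 3 regions higher in Th2 cells than in other effector cells lay at 13.9, 49.3 and 53.1 kb after the start, at 6.16, 3.87 and 6.54 in the authors' deposited table. A single region, 70.8 kb after the start, was higher in naive cells than in other effector cells, by 3.92 in the authors' deposited table.

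Furin, the protease that cuts Notch precursors and many other proteins, had the largest Th2 fold of the 6 genes. It lies on chromosome 7 at 80389194 to 80405441. Inside the gene, 1.10 kb after its first start site at chr7:80404059-80404621, Th2 cells exceeded naive cells by 8.61 and other effector cells by 8.44 in the authors' deposited tables. Treg cells exceeded the same populations by 6.17 and 6.0 in the authors' deposited tables, and the region, which also overlaps the lncRNA gene Gm44851, was not listed between Treg and Th2 cells. Further upstream, regions 11.8 and 21.1 kb before the start were higher in Th2 cells than in naive cells by 6.82 and 7.21 in the authors' deposited table. The regions over the first and the second start site were higher in Th2 cells than in other effector cells by 6.53 and 7.21 in the authors' deposited table, and a further one 15.3 kb after the first start by 4.58. Between the upstream Th2 regions and the gene, 8.95 kb before the start, 1 region was higher in naive cells than in other effector cells, by 4.19 in the authors' deposited table. With regions assigned only within 10 kb, 1 of the 3 Furin regions higher in Th2 cells than in naive cells was kept.

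The target genes had regions in opposite directions. Hes1, on chromosome 16 at 30065357 to 30067796, encodes a transcriptional repressor that is switched on by Notch in many tissues. It had 7 merged regions, 1 of them inside the gene. At chr16:30024388-30025271, 40528 bp from the nearer gene end and overlapping the lncRNA gene 9030404E10Rik, Th2 and Treg cells exceeded naive cells by 6.30 and 7.22 in the authors' deposited tables. Both exceeded other effector cells too, by 6.12 and 7.04 in the authors' deposited tables. Some 26030 bp from the gene, at chr16:30038941-30039714, the direction was the opposite: naive cells exceeded Th2 cells by 5.25 and other effector cells by 5.76 in the authors' deposited tables. This was the only member region higher in naive cells than in Th2 cells. The region inside Hes1 was lower in other effector cells than in all 3 other populations, at 4.71 for Th2, 5.48 for Treg and 6.31 for naive cells in the authors' deposited tables. On the side of higher coordinates Th2 cells exceeded other effector cells by 5.34 at 2560 bp, in a region overlapping the lncRNA gene Gm32998, and by 4.19 at 55673 bp from Hes1 in the authors' deposited table. Naive cells did so by 3.89 and 3.87 at the outermost pair, in the authors' deposited table, and Th2 cells by 4.64 over part of the last. With regions assigned only within 10 kb, Hes1 kept 2 of its 7 regions.

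Dtx1 encodes a ubiquitin ligase that is both a Notch target and a modulator of Notch signalling. It lies on chromosome 5 at 120680203 to 120711867, and all 4 of its regions lay inside it. All 4 were higher in naive cells than in other effector cells. In the authors' deposited table the folds were 7.30 over the start site, 4.25 at 6.37 kb, 6.70 at 14.6 kb and 6.83 at 22.9 kb after it. The last was also higher in naive cells than in Treg cells, by 4.89 in the authors' deposited table. It is the only member region listed between Treg and naive cells with naive cells as the high population, and it was not listed between Th2 and naive cells. Over the start site Th2 and Treg cells exceeded other effector cells by 4.86 and 6.32 in the authors' deposited tables. None of the 4 Dtx1 regions was higher in Th2 or Treg than in naive cells, against 11 and 4 of 21 for Rbpj. Of all merged regions 9.67% and 6.64% were listed in these directions. With only 4 regions, a count of 0 cannot be told apart from those shares.

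**Figure D4:**
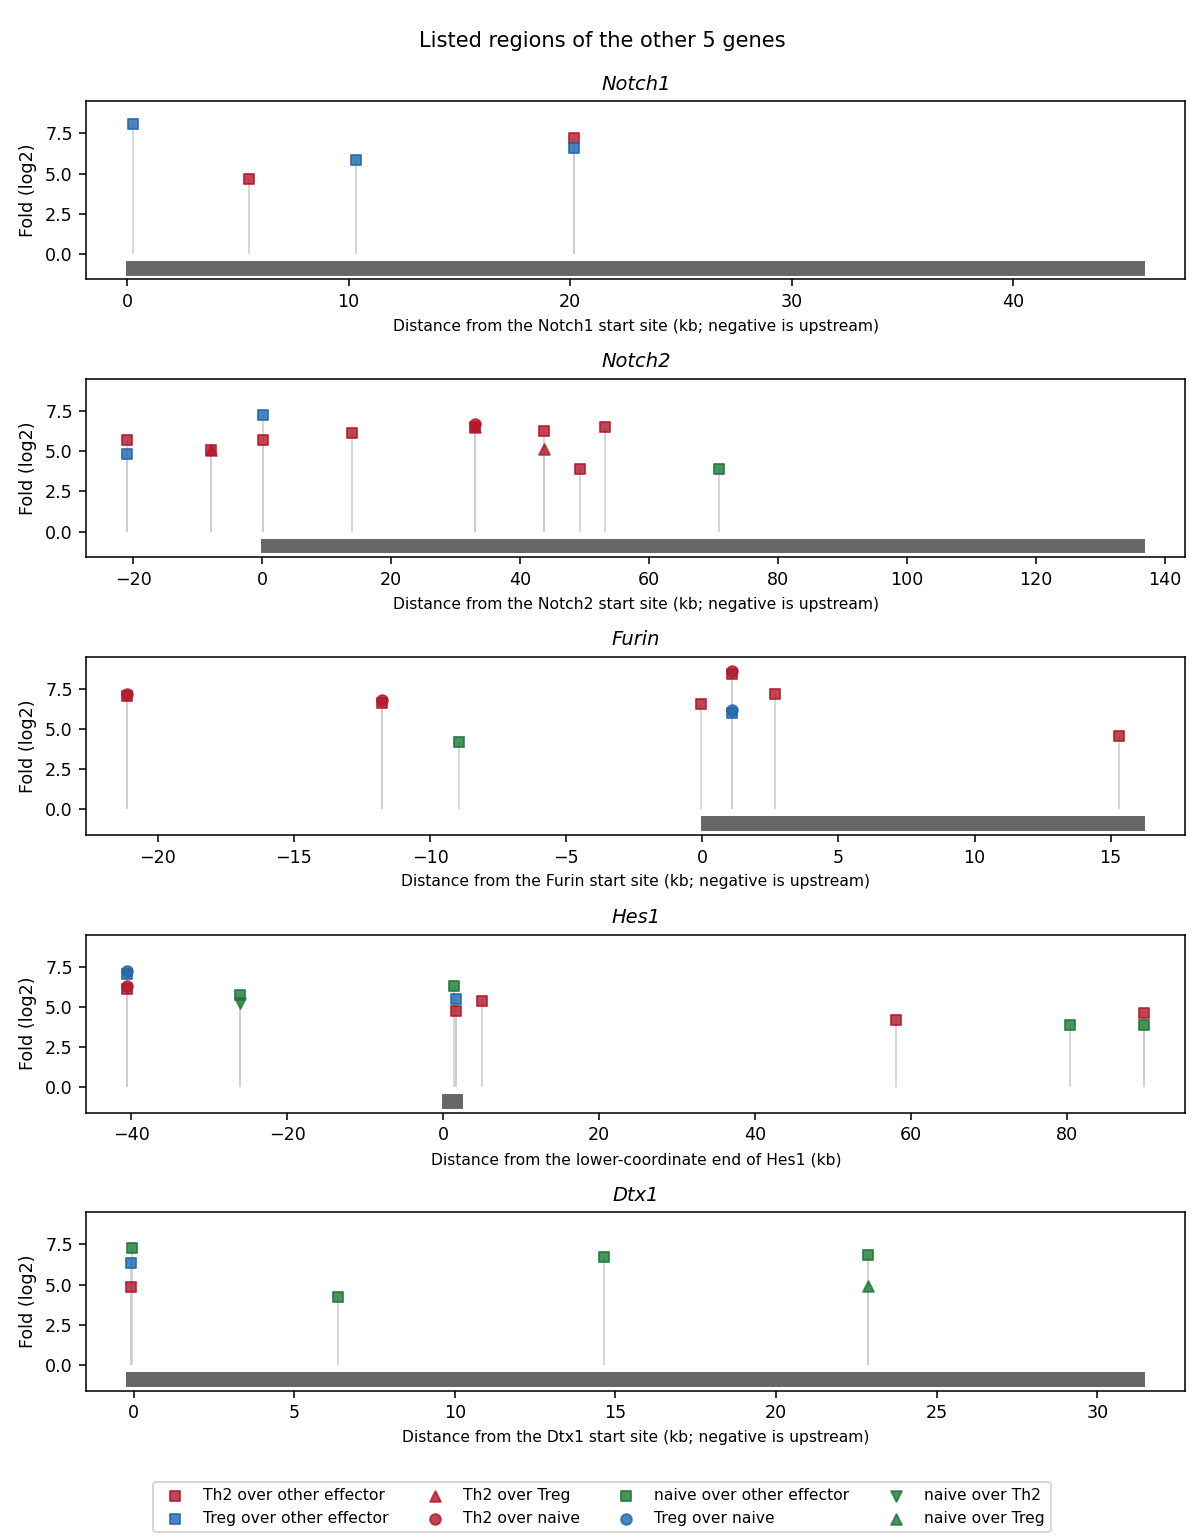
Size of each listed fold (log2) against the distance in kb from the gene's first start site, or from its lower-coordinate end for Hes1, with each gene as a grey bar; colour gives the higher and marker shape the lower population. Furin reaches 8.61 in Th2 cells just inside the gene, and the points of Dtx1 are green for naive cells except the pair over its start site.

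The other genes of the pathway, taken as a list, were higher in Th2 than in naive cells at about the share found over all regions. A list of 54 genes by role held 285 merged regions, of which 27 (9.47%) were higher in Th2 and 16 (5.61%) higher in naive cells, beside the 9.67% and 9.21% of all regions. Against naive cells Treg cells were higher at 13 (4.56%) and naive cells at 19 (6.67%), beside 6.64% and 5.76% of all regions. Between Treg and Th2 cells 8 (2.81%) were higher in Treg and 13 (4.56%) higher in Th2 cells, beside 3.34% and 6.72% of all. Other effector cells were lower than Th2 cells at 157 (55.1%), than Treg cells at 129 (45.3%) and than naive cells at 109 (38.2%). Over all regions these shares were 53.2%, 46.7% and 33.7%. By genes the list lay above all protein-coding genes in every direction, and its genes held 5.28 merged regions each on average, against 2.28 over all. In the list, 19 genes had a region higher in Th2 and 11 a region higher in naive cells (13.4% and 11.7% of all protein-coding genes did), and 10 had one higher in Treg and 7 one higher in naive cells (9.58% and 8.34% of all). A region higher in Treg cells was found at 6 and one higher in Th2 cells at 9 genes (5.6% and 10.2% of all). Above other effector cells the numbers were 46 for Th2, 41 for Treg and 31 for naive cells, beside 51.6%, 47.8% and 29.5% of all genes.

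Myc, Tle3, Maml2, Maml3 and Il2ra were among the list genes with most regions in a direction. Myc, a growth regulator and Notch target in T cells, had 5 regions higher in Th2 cells than in naive cells and 1 the other way, Tle3, a corepressor, 4 and 1, and Jag1, a ligand, 2 and 0. Maml2, a coactivator of the Mastermind family, leaned to naive cells, with 0 regions higher in Th2 and 6 higher in naive cells, and 1 higher in Treg and 8 higher in naive cells. Its relative Maml3 had 3 higher in Treg and 3 higher in naive cells, Tle3 1 and 3, and Myc 2 and 0. Over other effector cells the highest numbers were 11 for Maml3 (of 23 regions) and for Myc (of 19) in Th2 cells, 14 for Il2ra (of 17) in Treg cells and 25 for Maml2 (of 31) in naive cells, beside the 53.2%, 46.7% and 33.7% of all regions. In the comparison of Treg with Th2 cells Il2ra, a Notch target that encodes the Treg sort marker CD25, had 3 regions higher in Treg and 0 higher in Th2 cells. Myc, Maml3 and Tle3 had 2 each higher in Th2 cells and 1, 1 and 0 higher in Treg cells. Of all merged regions 6.72% were higher in Th2 and 3.34% higher in Treg cells in this comparison. By role, the 12 genes of nuclear partners and corepressors had 11 of 115 regions higher in Th2 and 12 higher in naive cells. The 12 genes of trafficking and turnover had 3 of 51 higher in Th2 and 1 higher in naive cells. The 11 target genes had 5 of 62 and 1, all of them at Myc. The 5 ligand genes had 3 of 9 and none, the 2 receptor genes 2 of 11 and none, the 8 protease genes 3 of 23 and none, and the 4 sugar transferase genes none of 14 and 2. These numbers stand beside the 9.67% and 9.21% of all regions. No region of any table was assigned to Dll3, Psenen, Heyl or Ptcra.

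**Figure D5:**
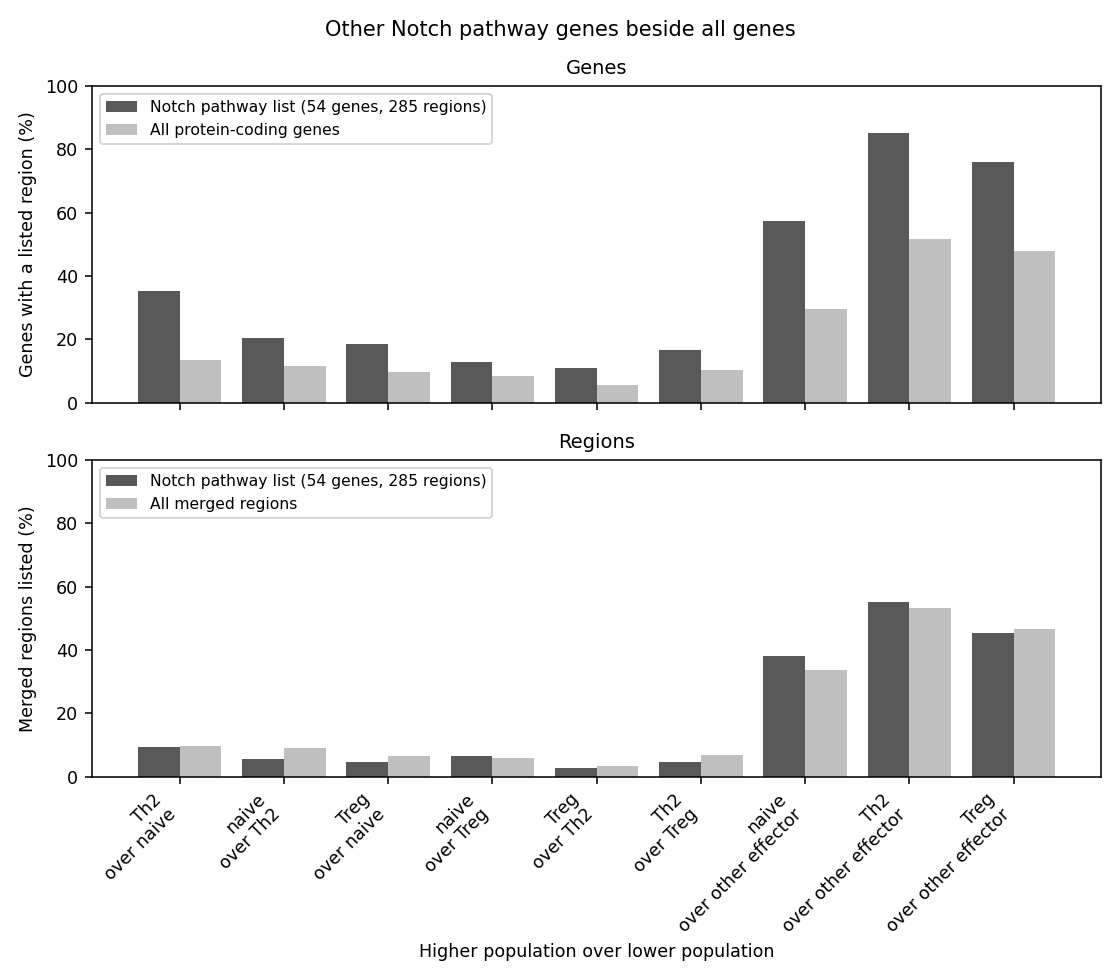
Percentage of genes with a listed region (top) and of merged regions listed (bottom) in each direction, for the 54 listed Notch pathway genes (dark bars) and for all protein-coding genes or all merged regions (light bars). The dark bars exceed the light ones by genes in each direction, whereas by regions they lie on either side of them, as with 9.47% and 9.67% for Th2 over naive cells and 5.61% and 9.21% for naive over Th2 cells.

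The genes most like Rbpj were found by comparing, over the 9 directions that hold any region, the share of a gene's regions listed in each, among 1508 genes with at least 8 merged regions. Nearest by Euclidean distance were Specc1, Bhlhe40 and Tnfsf11, at 0.152, 0.183 and 0.202. Specc1 had 7 of 13 regions higher in Th2 cells than in naive cells and 1 of 13 higher in Treg cells than in naive cells. Bhlhe40, a transcription factor gene, had 6 and 2 of 12, and Tnfsf11, the gene of the cytokine RANKL, 5 and 1 of 10. Each had 1 region higher in naive cells than in other effector cells, which Rbpj lacked. Among the nearest to Notch2 were Tpcn2 and Dock5, at 0.111 and 0.143, with 4 of 12 and 2 of 8 regions higher in Th2 cells than in Treg cells.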

How the data were processed

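Per the submitters' processing notes the authors found differential regions with DiffBind, with no version given, and deposited 6 tables of position and log2 fold. The sources used here do not say how reads were aligned, peaks called, cut sites shifted or values normalized, nor which threshold was set. The smallest absolute log2 fold in the deposited tables is 3.41 to 3.95. The notes name build mm9, but 20.6% of regions lay within 1 kb of a GRCm38.p6 start site, against 3.04% to 3.99% after shifts of 10, 100 or 1000 kb, so coordinates are given as GRCm38, 1-based. Folds were read as log2 because that is the scale of the authors' tool. Where 3 populations were all compared at 1 region (4 cases) the folds added up, with a largest residual of 0.

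Regions overlapping by at least 1 bp were merged with Python 3.11.15 and pandas 2.3.3, and a merged region counted for a gene when any of its rows was assigned to it. Assignment and merging were tested on simulated data. Counts stand beside the share of all merged regions or genes. There are no replicate values, so no test was run. The members, the pathway list and the cell type markers were chosen with earlier results of these data known. Named are the 6 members, their strongest regions and those in at least 3 tables, the 3 pathway genes with most regions per direction (where ties left 5 or fewer), and the 3 genes nearest to Rbpj and to Notch2. Some genes of these lists are not reported here by name. All 54 list genes matched the RefSeq gene table, which gives no strand or exons. Strand comes from the promoter windows. Reads could not be examined, so uniqueness of mapping is unknown.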

Additional observations from a re-analysis of the deposited data

How the results depend on the processing

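No paired analysis was possible because the deposited tables carry no replicates. Counts depended mainly on how far a region may lie from its gene. Assigned within 10 kb only, member regions numbered 5 for Th2 over naive, 0 for naive over Th2, 3 for Treg over naive, 3 for Th2 over Treg and 21 for Th2 over other effector cells. Inside genes only, these were 4, 0, 3, 2 and 16, and 6 were higher in naive cells than in other effector cells. Pathway list genes with a region then numbered, within 10 kb and inside genes, 7 and 3 for naive over Th2, 2 and 2 for Treg over Th2, and 5 and 4 for Th2 over Treg. Inside genes only they numbered 5 for Treg over naive and 20 for naive over other effector cells. A fold threshold 1 log2 unit stricter left 5 member regions higher in naive cells than in other effector cells. The other totals over the 6 genes and over the list stayed within 1.5 times under these settings, though counts of single genes did not: under the stricter fold Rbpj had 1 region higher in Th2 than in Treg cells and for naive over other effector cells Hes1 had 2, Notch2 and Furin 0. All totals did so with any overlap with a gene in place of the midpoint, with merging at 50% reciprocal overlap and, in the 3 tables they leave, without the tables of other effector cells. Without those tables Rbpj had 13 merged regions, Notch1 none, Notch2 3, Furin 3, Hes1 2 and Dtx1 1. With no counts or replicates, the depth behind a missing region is unknown.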

Other observations

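Start sites of the wider pathway showed the same division between tables as those of the 6 genes. Of the 54 listed genes 42 had a RefSeq promoter window, and 34 of these (81.0%) lay under a region lower in other effector cells, beside 49.0% of all protein-coding genes. Regions over a window were counted whatever gene they were assigned to. By population 29 (69.0%) were higher in Th2, 24 (57.1%) higher in Treg and 6 (14.3%) higher in naive cells, beside 38.7%, 34.6% and 5.64% of all protein-coding genes. The last were Notch3, the sugar transferase gene Lfng, Maml2, Tle1, Tle3 and Dtx2, named after their values were seen. In the tables among Th2, Treg and naive cells only Jag1, a ligand gene, and Rbpjl, a relative of Rbpj, had a region over a window (4.76%, beside 4.77% of all genes). Jag1 had one higher in Th2 and one higher in Treg cells than in naive cells, and Rbpjl one higher in Th2 cells than in naive cells.

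Notch3 had 7 merged regions, 1 higher in Th2 cells than in naive cells, 1 higher in Treg cells than in naive cells and 1 higher in Th2 cells than in Treg cells. Notch4 had 4, with 1 higher in Th2 cells than in naive cells. Neither had a region higher in naive cells than in Th2 or Treg cells. Of all merged regions 9.67%, 6.64% and 6.72% were listed for Th2 over naive, Treg over naive and Th2 over Treg cells. For naive over Th2 and over Treg cells the shares were 9.21% and 5.76%. Counts from so few regions cannot be told apart from these shares. Over other effector cells, Notch3 had 4 regions higher in Th2, 4 in Treg and 2 in naive cells, and Notch4 2, 2 and 0. Beside these stand 53.2%, 46.7% and 33.7% of all.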
